A study of Caenorhabditis elegans with 2 samples.

Results

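The genes described here are 10 nuclear genes of Caenorhabditis elegans that act in the mitochondrial stress response, in mitophagy and in autophagy. They are hsp-60 and hsp-6 (mitochondrial chaperones), atfs-1 and dve-1 (stress regulators), dct-1, pink-1 and pdr-1 (mitophagy), and lgg-1, lgg-2 and bec-1 (autophagy). They were chosen by name from 19985 protein-coding genes of the WBcel235 (ce11) models of Ensembl, and all 10 names matched 1 gene each. The measurement was chromatin immunoprecipitation sequencing (ChIP-seq) of HIF-1, the worm hypoxia-inducible factor, in whole hermaphrodites of strain OR3350 at the L4 larval stage, 55 h after release from starved L1 larvae. All animals stably expressed a HIF-1 protein tagged at its C-terminal end with GFP and FLAG, which was precipitated through the GFP. There was 1 group with 2 biological replicates, the labels give no oxygen condition, and no untagged or mutant group was analysed here. Whole animals were used, so a summit cannot be placed in a tissue, and one found in few cells cannot be told apart from weak binding in many.

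HIF-1 binds DNA with its partner AHA-1 at a short core, ACGTG or GCGTG, and is marked for destruction when oxygen is plentiful. When mitochondria are damaged, the transcription factor ATFS-1 is no longer imported and degraded there and instead enters the nucleus, where it and DVE-1 raise the chaperone genes hsp-6 and hsp-60. Mitophagy removes whole mitochondria: the kinase PINK-1 and the ubiquitin ligase PDR-1, the worm parkin, mark them, and DCT-1, the worm homologue of BNIP3, tethers them to the autophagosome, a membrane built with Beclin (BEC-1) and coated with the Atg8 family proteins LGG-1 and LGG-2. In mammals BNIP3 is a known target of HIF-1.

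For each gene, every summit from 5000 bp upstream of the gene start to 1000 bp past the gene end was taken. The thresholded list held the 631 summits kept by the authors' reproducibility step, with pooled signal from 54.09 upwards. The highest pooled signal outside it was 54.05, so the list holds the strongest pooled summits. Membership therefore follows a cut in pooled signal and does not by itself show that the replicates agree at a given peak. The pooled relaxed list held 6541 summits, and the relaxed lists of replicates 1 and 2 held 13935 and 13823. These relaxed lists include background by design. Signal is the authors' value per peak. Over the 596 thresholded summits found in both replicate lists, the pooled signal was a median of 1.00 times the sum of the replicate signals, so a pooled value is read against the sum of the replicates.

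Of the 10 genes, 3 had a thresholded summit in their window, against 5.72% of all protein-coding genes. These were hsp-60 with a pooled signal of 129, dct-1 with 77.8 and lgg-2 with 61.9. A further gene, lgg-1, had a summit of 53.2, below the lowest thresholded value of 54.1. The other 6 genes, among them hsp-6, atfs-1 and both arms of the PINK-1 and PDR-1 pair, had summits in the relaxed lists alone, with pooled signals of at most 40.3. Their strongest pooled summits had −log10 q-values from 0.064 (pink-1) to 1.49 (hsp-6), and the next highest was 0.39 (pdr-1). The thresholded summits of hsp-60, dct-1 and lgg-2 had 2.11. The stretches centred on the summits that carry these results, with 50 bases on each side, are shown on the plus strand of ce11 (RefSeq copy of WBcel235), with capitals marking each ACGTG or GCGTG core on either strand, where CACGT and CACGC are the same core read on the other strand.

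hsp-60, chrIII:1619085-1619185: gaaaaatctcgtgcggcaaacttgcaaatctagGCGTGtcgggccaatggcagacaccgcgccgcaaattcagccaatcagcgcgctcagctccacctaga
dct-1, chrX:7951703-7951803: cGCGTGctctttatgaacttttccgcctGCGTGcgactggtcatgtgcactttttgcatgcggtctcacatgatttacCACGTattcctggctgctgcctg
lgg-2, chrIV:10936111-10936211: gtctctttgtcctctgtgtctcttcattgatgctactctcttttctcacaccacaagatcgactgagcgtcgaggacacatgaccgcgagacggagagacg
lgg-1, chrII:6348548-6348648: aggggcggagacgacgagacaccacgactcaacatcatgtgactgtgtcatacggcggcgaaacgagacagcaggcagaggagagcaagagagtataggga
hsp-6, chrV:4827101-4827201: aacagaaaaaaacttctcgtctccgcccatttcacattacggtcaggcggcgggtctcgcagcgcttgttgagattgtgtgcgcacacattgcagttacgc

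The first 3 sequences are the thresholded sites, the next one is the strongest site outside that list, and the last one is the promoter site of the other chaperone gene. The hsp-60 site held 1 core, centred 15 bp from the summit. The dct-1 site held 3, centred 47, 20 and 30 bp from the summit, and the lgg-2, lgg-1 and hsp-6 sites held none within 50 bp. In all, 2 of the 3 thresholded summits held the core, against 45.8% of the 631.

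**Figure D1:**
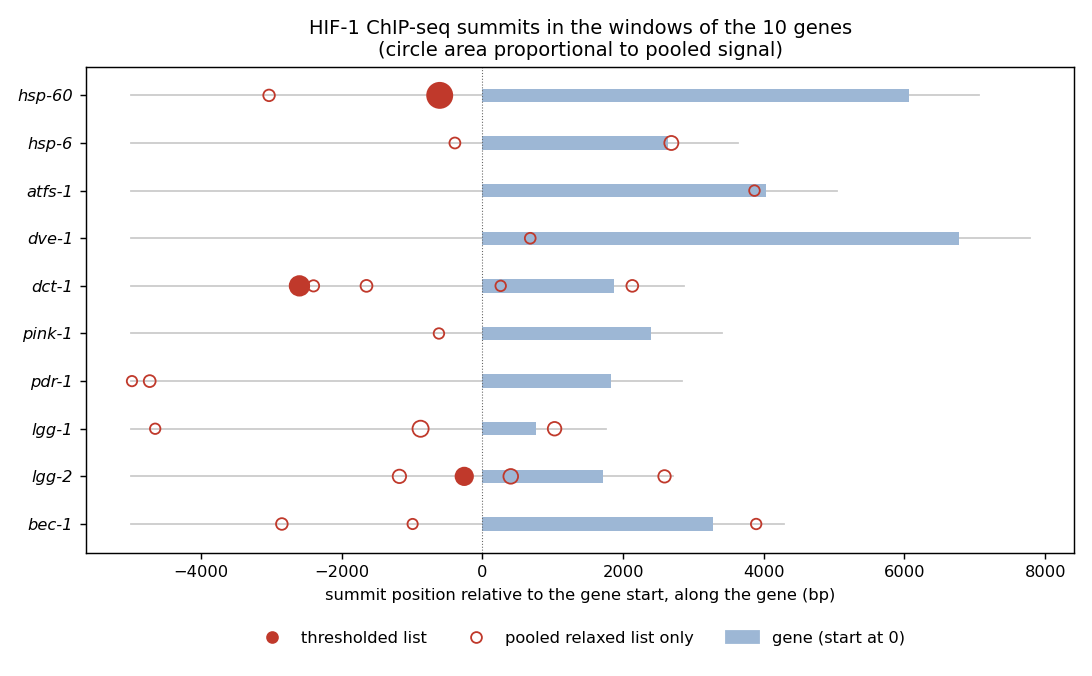
Summits of the pooled relaxed list along each of the 10 genes. The x axis gives the position relative to the gene start in bp, the bar is the gene, the line is the window searched, circle area is proportional to pooled signal, and filled circles are in the thresholded list. The filled circles lie at hsp-60, dct-1 and lgg-2, and 18 of the 24 summits lie outside the promoter window.

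The gene hsp-60 encodes the mitochondrial chaperonin that folds imported proteins and is a standard reporter of mitochondrial stress. Its thresholded peak (chrIII:1618913-1619356) had its summit 607 bp upstream of the gene start and ranked 119 of 631 in signal. In replicate 1 the matching summit lay 52 bp away with a signal of 71.4 and rank 119, and in replicate 2 it lay 6 bp away with a signal of 56.7 and rank 142. Both replicates therefore gave it a rank of 142 or better. The summit lies between hsp-60 and the divergent gene Y22D7AL.10, annotated in RefSeq as the mitochondrial 10 kDa heat shock protein, the co-chaperonin that caps the chaperonin ring. It was 206 bp upstream of the Y22D7AL.10 start, nearer than to the hsp-60 start, so with each summit given to the nearest gene start the peak counted for Y22D7AL.10 and not for hsp-60. A narrower promoter, reaching from 500 bp before to 100 bp after the gene start, left hsp-60 without a call as well. Among the 295 thresholded nuclear summits at promoters, this one ranked 47. The summits next to it in signal were those of serp-1.1 (129.4) and, jointly, sec-61.B and trap-3 (127.99).

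A second summit at hsp-60, 3033 bp upstream, had a pooled signal of 27.3. It had a match 1 bp away in replicate 2 (24.95, rank 789), while the nearest summit of replicate 1 was 2374 bp away and was the promoter summit itself. The promoter summit was thus marked in both replicates and the distal one in replicate 2.

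The other mitochondrial chaperone gene, hsp-6, encodes the mitochondrial HSP70. It had no thresholded summit. Its promoter summit, 391 bp upstream, had a pooled signal of 24.4, with 13.7 in replicate 1 (rank 4233) and 10.01 in replicate 2 (rank 12345). The replicate 2 value is close to the lowest of its list, 9.57, the replicate 1 value is above the median of its list, 11.7, and the pooled value is below the pooled median of 26.4. The summit lay nearer to the start of the divergent gene C37H5.5 (209 bp) and inside the annotated noncoding genes C37H5.15 and C37H5.16. A higher summit of 40.3 lay 50 bp past the end of hsp-6, with 26.4 in replicate 1 (rank 788, 117 bp away) and 15.7 in replicate 2 (rank 2977, 8 bp away), and the nearest start there was that of adss-1, 651 bp away. The pooled promoter signals of the pair of mitochondrial chaperone genes were thus 129 for hsp-60 and 24.4 for hsp-6. No test of that difference is possible from peak lists without read counts.

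The regulators atfs-1 and dve-1 had relaxed summits alone. For atfs-1, the transcription factor that switches on the mitochondrial stress response, the pooled list held 1 summit of 22.98 in the 3′ UTR, 169 bp before the gene end. The nearest summits had 13.4 in replicate 1 (106 bp away) and 11.9 in replicate 2 (88 bp away). The promoter held a summit of 9.60 in replicate 1, 547 bp upstream, and one of 13.4 in replicate 2, 39 bp upstream. These promoter summits are more than 500 bp apart and no pooled summit stood there, so the replicates marked different places. For dve-1, a homeodomain protein that binds chaperone gene promoters during the stress response, the pooled list held 1 summit of 23.8 in the 5′ UTR, 680 bp downstream of the gene start. It had matches of 12.6 in replicate 1 (6 bp away) and 11.8 in replicate 2 (40 bp away), and 1 core 45 bp from the summit. The dve-1 site was thus placed alike in both replicates, at ranks of 5417 and 7695.

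The mitophagy receptor gene dct-1 had the most summits of the 10 genes, 5 in the pooled list. Its thresholded peak (chrX:7951531-7951974) had a summit 2601 bp upstream of the gene start, with a rank of 316 of 631. Both replicates placed the summit at the same base, with a signal of 37.7 and rank 386 in replicate 1 and of 34.3 and rank 384 in replicate 2. This was the closest replicate match of the 24 pooled summits, with a distance of 0 bp in both lists. The site lies outside the promoter window and outside a narrower locus window of 2000 bp upstream to 500 bp past the gene end, with which the dct-1 call was lost. It lies inside the annotated noncoding genes C14F5.10 and C14F5.11, and dct-1 has the nearest protein-coding start. A neighbouring summit 200 bp nearer to the gene had a pooled signal of 26.0 with a match at the same base in replicate 1 (20.2) and none of its own in replicate 2, and it too held 1 core. Another upstream summit, 1648 bp from the start, had 28.7 in the pooled list, 15.1 in replicate 1 and 15.1 in replicate 2. The intron summit 260 bp downstream of the start had 22.6 in the pooled list and 18.4 in replicate 1, and the nearest summit of replicate 2 was 742 bp away. The promoter window of dct-1 held no summit in any of the 4 lists, although it held 3 cores. Signal at dct-1 therefore lay upstream of the promoter, in the gene and past its end.

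The genes pink-1 and pdr-1, which mark damaged mitochondria, had no thresholded summit, and their pooled summits had signals of 21.9, 22.7 and 28.8. Of these, 21.9 and 22.7 were nearer to the list's lowest value of 21.2 than to its median of 26.4. The value of 28.8 was above the median. The only pooled summit at pink-1, of 22.7, lay 618 bp upstream, in a coding exon of the upstream gene fbxl-3. The nearest summits were 148 bp away in replicate 1 (10.2, rank 10259) and 40 bp away in replicate 2 (13.96, rank 4374). At pdr-1, the pooled summits of 28.8 and 21.9 lay 4730 and 4982 bp upstream, in an intron of rml-1, whose start is nearer. Replicate 2 had a signal of 24.1 there (rank 859) and replicate 1 had none nearer than 329 bp. In the pdr-1 promoter, replicate 2 alone had a summit, of 12.1, 137 bp upstream and with 1 core. Hence neither gene had a summit near its start that both replicates shared within 100 bp.

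The Atg8 family genes lgg-1 and lgg-2, of the GABARAP and LC3 types, had the next highest signals after hsp-60 and dct-1. The thresholded lgg-2 peak (chrIV:10935939-10936382) had its summit 258 bp upstream of the gene start, with a rank of 474 of 631, and lgg-2 has the nearest start. The replicates differed in strength there. Replicate 1 had a signal of 41.8 and rank 322 at the same base, and replicate 2 had 21.6 and rank 1141, 7 bp away. With each replicate list cut to its 631 strongest summits, the lgg-2 call was lost without replicate 1, and lgg-1 was called without replicate 2. The next thresholded nuclear promoter summits in signal were those of nduc-2 with Y71H2AM.20 (61.9) above it and of tim-1 with Y75B8A.23 (61.7) below it.

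A second lgg-2 summit of 43.9 lay in an intron, 403 bp downstream of the start, with 35.8 in replicate 1 (same base, rank 437) and 21.5 in replicate 2 (110 bp away, rank 1152). Another of 36.8 lay 1180 bp upstream, nearer to the start of fic-1 (371 bp), with 20.1 in replicate 1 and 20.4 in replicate 2 and 1 core 24 bp from the summit. The last, of 31.6, lay 882 bp past the gene end, 111 bp upstream of the start of dnc-1. All 4 lgg-2 summits had a match within 30 bp in replicate 1, and in replicate 2 the nearest summit to the last one was 310 bp away.

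The strongest lgg-1 summit lay 879 bp upstream and ranked 654 in the pooled list, with 22 other summits between it and the lowest thresholded one. Its −log10 q-value of 2.11 was the list's ceiling, which the thresholded peaks share. Replicate 1 had a signal of 33.6 and rank 486 at 68 bp from it, and replicate 2 had 20.1 and rank 1396 at 123 bp. Replicate 1 had a further summit of 13.9 (rank 4011) located 1011 bp upstream, next to the replicate 2 summit at 1002 bp upstream. The replicates thus shared a position there at which replicate 1 had the weaker of its 2 summits. A second lgg-1 summit of 37.5, 267 bp past the gene end, was placed alike in both replicates, with 20.4 at 24 bp in replicate 1 and 19.9 at 20 bp in replicate 2. There the nearest start is that of C32D5.8, 729 bp away.

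The Beclin gene bec-1 had pooled summits of 27.8, 21.6 and 22.5. Those 2851 and 992 bp upstream had matches of 21.5 and 17.1 in replicate 1 and none nearer than 2420 bp in replicate 2. The one past the gene end had a match of 15.6 in replicate 2, 15 bp away, and none nearer than 1638 bp in replicate 1, and lay 149 bp upstream of the start of skn-1. Each bec-1 summit was thus found in 1 replicate list.

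**Figure D2:**
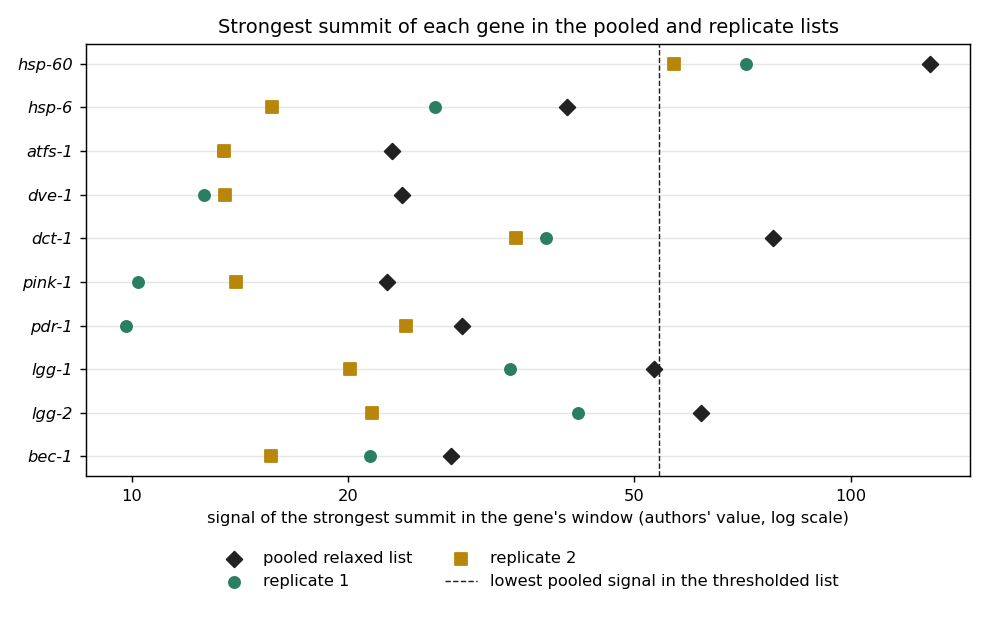
Signal of the strongest summit in the window of each of the 10 genes, on a log axis, in the pooled relaxed list (diamonds) and in the lists of replicate 1 (circles) and replicate 2 (squares). The dashed line is the lowest pooled signal of the thresholded list, 54.1. The pooled values of hsp-60, dct-1 and lgg-2 lie above it and that of lgg-1, 53.2, just below. The strongest summits of a gene in the 3 lists can lie at different places, and the replicate points of atfs-1 nearly coincide.

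All 10 genes had at least 1 summit in the pooled relaxed list, against 39.6% of all protein-coding genes. Taken from the strongest summits of replicate 1 alone, at the same list length, the count was 8, without pink-1 and pdr-1. All 10 had a summit in the full relaxed lists of replicate 1 (65% of all genes) and replicate 2 (65.3%). The windows of the 10 genes ran from 6760 to 12778 bp with a median of 8519.5 bp, and those of all genes had a median of 8026 bp. The promoter window, from 1000 bp before to 200 bp after the gene start, has the same length for every gene, and there 2 of the 10 had a thresholded summit (hsp-60 and lgg-2), against 1.97% of all genes. For the pooled relaxed list 6 of the 10 had a promoter summit, against 12.2% of all genes, and atfs-1, dve-1, dct-1 and pdr-1 had none. The 6 with one included hsp-6, pink-1 and bec-1 with signals of 21.6 to 24.4. A promoter summit in both replicate lists, at any distance from each other, was present in 6 of the 10, against 10.1% of all genes. At hsp-60, hsp-6 and lgg-2 the replicate summits lay within 100 bp of each other. At atfs-1 they lay 547 and 39 bp upstream, and at pink-1 470 and 658 bp upstream. At lgg-1 they lay 811 bp upstream and 98 bp downstream. A shared promoter position was not counted for all genes. The median signal of the 24 pooled summits in the windows was 28.0, against 26.4 for all 6541, and 3 of the 24 were thresholded, against 9.65%. The shares of genes with a summit were thus above those of all genes, while the summits had a median signal near that of the whole list. No test was made of these shares, because the genes were named with earlier results of these data known.

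**Figure D3:**
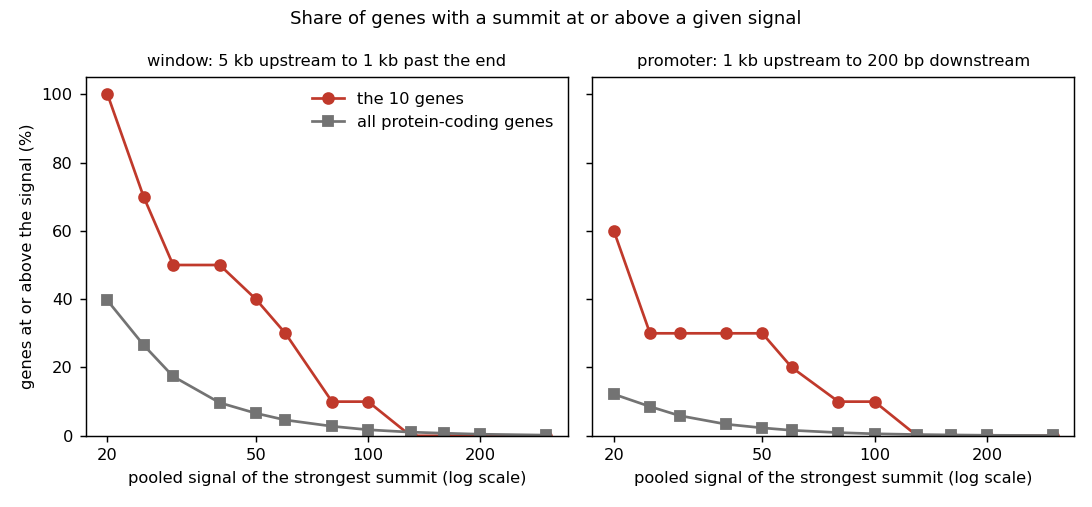
Share of genes whose strongest pooled summit reached at least the signal on the x axis (log scale), for the 10 genes (circles) and all 19985 protein-coding genes (squares), in the whole window (left) and in the promoter window (right). At a signal of 50 the window share was 40% for the 10 genes and 6.60% for all genes. From a signal of 130 upwards the 10 genes had no summit. Few genes of any kind reached 130, 1.07% of all genes in the window and 0.365% in the promoter window.

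Replicate agreement was described over the 24 pooled summits. A summit within 100 bp in both replicate lists was found for 10 of the 24, against 46.2% of all pooled summits, so the 10 genes' share was near the background. A further 7 had a match in replicate 1 alone, 6 in replicate 2 alone, and 1 in neither. Read by peak interval, 19 of the 24 overlapped an interval in both replicate lists. The overlap share was not computed for all pooled peaks, so this count cannot be set against a background. The nearest protein-coding start was that of the listed gene for 11 of the 24 and that of another gene for 13, and 4 lay inside another protein-coding gene. By position, 16 lay between protein-coding genes, 4 in introns, 2 in coding exons and 1 in each kind of UTR. Nearest starts and positions were not counted for all pooled summits, so these counts only describe where the 24 lie. Within 300 bp of the annotated gene end, a position looked at after the values were seen, 4 of the 10 genes had a pooled summit (hsp-6, atfs-1, dct-1 and lgg-1), against 6.23% of all genes.

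Both strands were searched for the core, up to 50 bp from each pooled summit. It was present at 8 of the 24, against 24.5% of all pooled summits. These were 1 summit each of hsp-60, dve-1, lgg-2 and bec-1, and 2 each of dct-1 and pdr-1. In flanks of the same length centred 500 bp to the left and right, 0 and 5 of the 24 held it, against 14.2% and 13.6% for all pooled summits. Across whole promoter windows the core was common, at 8 of the 10 genes against 82.1% of all genes, and the exceptions were lgg-1 and bec-1. The E-box CACGTG, which contains ACGTG and is bound by many bHLH factors, was at none of the 24 summits, against 3.59% of all pooled and 8.08% of thresholded summits, and in the pink-1 promoter window alone of the 10 (18.4% of all genes). The heat shock element core GAANNTTC was at 3 of the 24 summits, 1 of lgg-1 and 2 of bec-1, against 5.49% of all pooled and 4.28% of thresholded summits, and at none of the 3 thresholded ones. It was in the promoter windows of atfs-1, hsp-6, hsp-60, lgg-1 and pink-1 (5 of 10, against 57.2% of all genes). The median GC content of the 24 summit windows was 40.6%, equal to that of all pooled summits and below the 48.5% of thresholded summits. The thresholded hsp-60, dct-1 and lgg-2 sites had 56.4%, 52.5% and 51.5%. The lgg-1 and hsp-6 sites printed above, which held no core and are not thresholded, had 56.4% and 52.5%. A match is a description of these letters in the window and was not tested as a binding site.

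**Figure D4:**
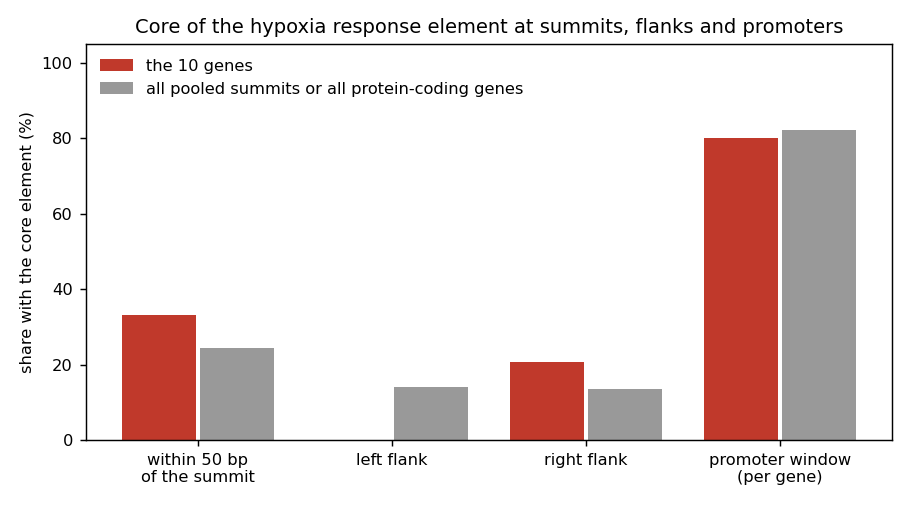
Share of sites that hold ACGTG or GCGTG on either strand, for the 10 genes (left bars) and for all pooled summits or all protein-coding genes (right bars). The first 3 pairs are windows of 50 bp on each side of the summit and equal windows in the left and right flanks. The summit share was 33.3% for the 24 summits and 24.5% for all. The left flanks of the 24 held none, against 14.2% for all, and the right flanks 20.8%, against 13.6%. The promoter shares were 80% and 82.1%.

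Other genes of the same pathways were read from lists that leave out the 10 genes. These lists too were chosen with earlier results of these data known, so their shares were not tested and are no independent support. Of 58 matched genes, 6 had a thresholded summit at the promoter, against 1.97% of all genes, and 19 had a pooled one, against 12.2%. Among mitochondrial stress chaperones and proteases this was 1 of 9, Y22D7AL.10, through the peak it shares with hsp-60. The protease gene ymel-1 (44.2), the co-chaperone gene dnj-10 (24.0) and the prohibitin gene phb-2 (21.4) had pooled promoter summits, and haf-1, lonp-1, spg-7, phb-1 and clpp-1 had none, although clpp-1 had a thresholded summit of 58.6 in its window, nearer to the start of nep-26. Of the 4 protease genes, ymel-1 was thus the one with a pooled promoter summit.

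Among the regulators, 3 of 12 had a thresholded promoter summit. The histone demethylase gene jmjd-1.2 had summits of 193 (rank 65) and 64.7, located 476 and 273 bp upstream, and the stronger had 100.7 in replicate 1 and 88.4 in replicate 2. That summit was nearer to the start of F29B9.11 (314 bp). The acetyltransferase gene cbp-1 had 135, 866 bp upstream, and taf-4, a subunit of the general factor TFIID, had 57.5. The stronger jmjd-1.2 summit and that of cbp-1 thus had a higher pooled signal than any summit of the 10 genes. The ubiquitin-like factor gene ubl-5, which acts with DVE-1, had a pooled summit of 30.8.

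Among mitophagy adaptors and genes of mitochondrial fusion and fission, 1 of 12 was called, ced-9 (159, 998 bp upstream), the worm BCL2 homologue, and this summit lay 103 bp from the start of mev-1. In core autophagy 1 of 25 was called, the scaffold gene epg-7 (61.5, 233 bp upstream), with 28.6 in replicate 1 and 32.3 in replicate 2. Outside the promoter windows at the gene start, hlh-30, the autophagy transcription factor gene, had thresholded intron summits of 304 and 55.2 and was also called at the promoter when every annotated transcript start was counted, epg-9 had one of 123 in an intron, atg-7 had a summit of 87.8 located 1960 bp upstream, and atg-2 one of 66.9 located 2058 bp upstream. The atg-7 summit was nearer to the start of klc-1. In core autophagy 16 of 25 genes had a pooled summit in the window, against 39.6% of all genes. In the promoter window, which has the same length for every gene, it was 4 of 25 (16%), near the 12.2% of all genes. The name epg-1 matched no gene.

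**Figure D5:**
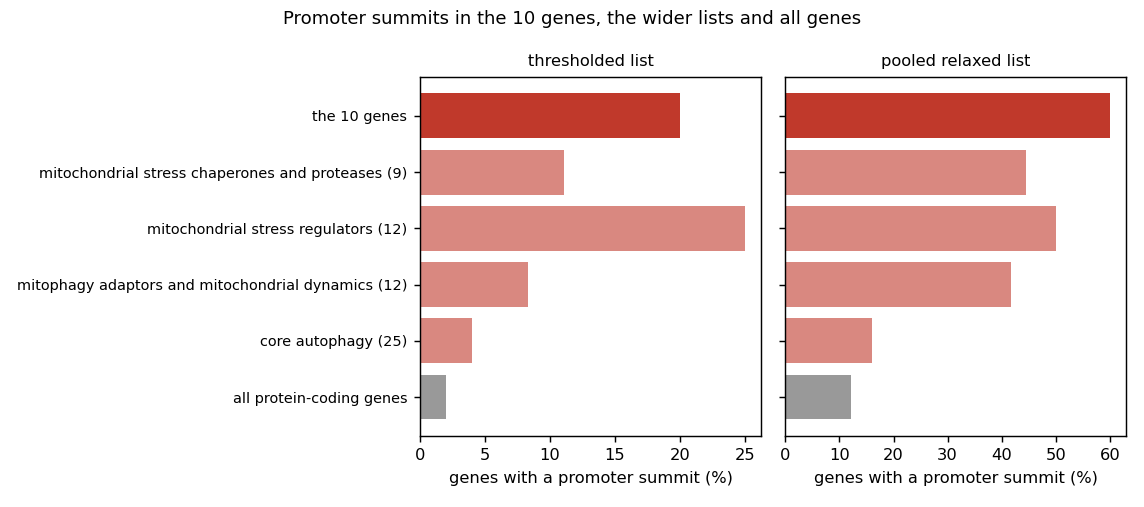
Share of genes with a promoter summit in the thresholded list (left) and in the pooled relaxed list (right), for the 10 genes, for 4 wider lists with their number of genes, and for all protein-coding genes. The thresholded share was 20% for the 10 genes, 25% for the 12 regulators and 1.97% for all genes. The 10 genes and the wider lists were chosen with earlier results of these data known, and the shares were not tested.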

How the data were processed

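Per the deposited descriptions, the authors made relaxed lists of peaks and background from ce11 alignments and 1 control, for each replicate and for both together, to feed an irreproducible discovery rate (IDR) step, and 1 thresholded list. Aligner, peak caller, IDR cut-off and versions were not given in the sources used here, nor was the signal formula. The deposited lists hold a signal value, a −log10 q-value with a shared ceiling, and a summit offset, and no read counts, so the depth is unknown, and no counting intervals were computed. Peaks were called by the authors per replicate and on pooled reads. The deposited ce10 lists were not used here.

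Summits (peak start plus offset, 1-based) were assigned to windows of Ensembl genes with Python 3.11.15 and pandas 2.3.3. Ranks are within a list. Summits within 100 bp counted as shared. Motifs were searched with the RefSeq WBcel235 sequence. Window counting, summit matching within 100 bp and the core search were first tested on simulated data. With 1 group of 2 replicates and no counts, no test was made: counts stand beside the share of all genes or summits where that share was computed.

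The genes, lists and rules were chosen with earlier results of these data known. Named genes are the 10, the genes holding or nearest to their thresholded summits, the neighbours in signal of the promoter summits, and listed pathway genes with a promoter summit. The genes nearest to relaxed summits, and listed genes with other summits or none, were named after their values were seen. The wider pathway lists came from general knowledge.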

Additional observations from a re-analysis of the deposited data

How the results depend on the processing

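No paired analysis was possible because the series has 1 group. For the 10 genes, the count with a thresholded summit in the window was 3, and it was 1 in the stronger 50% of peaks and 2 to 4 when 1 replicate was left out. The promoter count was 2, and it was 1 (lgg-2) with 500 bp upstream to 100 bp downstream, 1 (hsp-60) in the stronger 50%, and 1 to 3 when 1 replicate was left out, 1 without replicate 1 (hsp-60 stays, lgg-2 is lost) and 3 without replicate 2 (lgg-1 is added). With the nearest gene start it was again 2, dct-1 and lgg-2, since the hsp-60 summit then counts for Y22D7AL.10. The count of thresholded summits with ACGTG or GCGTG was 2 of 3, and it was 1 of 1 in the stronger 50%, 2 of 2 without replicate 1 and 2 of 5 without replicate 2. It was 2 of 3 within 25 bp of the summit and 3 of 3 within 100 bp, where lgg-2 was added. Of the 24 pooled summits, 6 were shared by both replicates within 50 bp and 16 within 200 bp. In the wider lists the promoter count of 6 was 3 to 6 when 1 replicate was left out, 3 without replicate 2. Of the 28 alternative values, 20 were within 1.5 times of the count reported and 8 were not. Counts were compared here, so the 2 of 5 without replicate 2 is among the 20, although a smaller share than 2 of 3. The genes changed in some of the 20. With 2000 bp upstream to 500 bp past the end dct-1 lost its thresholded summit (2 genes) and pdr-1 its pooled ones (9 genes). Without replicate 2 the pooled count was 8, without pink-1 and pdr-1. Each replicate alone was taken at the same number of strongest summits. No share of all genes or of all summits stands beside the counts at these alternative settings, so their changes cannot be set against a background. Relaxed lists include background, so a summit near a list's lowest signal cannot be told apart from it.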

Other observations

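The pooled summits near the ends of hsp-6, atfs-1, dct-1 and lgg-1 had signals of 40.3 for hsp-6, 22.98 for atfs-1, 28.3 for dct-1 and 37.5 for lgg-1, and none of them is in the thresholded list. The hsp-6 and lgg-1 ones lay upstream of the next gene on the same strand, 651 bp from the start of adss-1 and 729 bp from that of C32D5.8, the dct-1 one lay in a coding exon of the neighbouring gene sfxn-2, and the atfs-1 one lay in its 3′ UTR.

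Short sequences noticed at the printed sites were counted afterwards. CCAAT, on either strand, occurs 2 times within 50 bp of the hsp-60 summit and was at 5 of the 24 pooled summits, against 18.5% of all pooled summits and 14.7% of thresholded ones. GAGAGA, on either strand, was at the thresholded lgg-2 summit and at 4 of the 24, against 12.4% of all pooled and 23.9% of thresholded summits.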
